A study of Arabidopsis thaliana with 24 samples.

Results

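The histone genes of Arabidopsis thaliana were followed as a set of 42 loci among the 34212 genes of the deposited count table. The members were chosen by locus identifier. They comprised 5 genes for the replicative histone H3.1, 8 for H4, 11 for H2B, 4 for canonical H2A, 2 for H2A.X, 3 for H2A.W, 3 for H2A.Z, 3 for H3.3 and 3 for the linker histone H1. All 42 matched a gene of the TAIR10.1 annotation, which gave a name to 19 of them, and the others are given here by locus and class.

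Histones wrap DNA into nucleosomes, and linker histone H1 binds the DNA where it enters and leaves them. In plants, as in other eukaryotes, genes for H3.1, H4, H2A and H2B are used mainly in S phase, when newly copied DNA has to be packaged, and the CAF-1 chaperone places H3.1 behind the replication fork. H3.3 and H2A.Z are replacement variants, placed outside replication: H3.3 with the help of the HIRA complex, and H2A.Z by the SWR1 remodeller, often at the start of genes. H2A.X is the form phosphorylated at DNA breaks, and H2A.W marks plant heterochromatin. In a root that thickens, the vascular cambium is the dividing tissue that adds xylem and phloem.

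The study asked how auxin signalling and cytokinin act together in the cambium of the Arabidopsis root. All 24 libraries came from 1 homozygous line, pANT:XVE>>axr3-1-YFP, in which the promoter of the cambium gene ANT drives the estradiol-responsive activator XVE and estradiol then switches on axr3-1-YFP, a stabilised repressor of auxin responses. Plants 9 d old were moved to plates with 5 µM estradiol (EST), 1 µM of the cytokinin BAP, both (EST+BAP), or the solvent DMSO, so the DMSO controls carried the transgene too and estradiol was not given to a line without it. Segments of the main root were taken after 4 h or 24 h, with 3 libraries in each of the 8 groups, and rRNA-depleted total RNA was sequenced with strand-specific kits. The 4 h and 24 h harvests were separate runs of the experiment. Per the study's methods each time point was done in 3 repeats of the experiment. The sources used here do not say whether a replicate number marks 1 repeat in all groups.

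Total counts per library lay between 14514022 and 45586679. The library of DMSO replicate 1 at 24 h stood apart, with 54.1% of its counts in ribosomal RNA genes and 6001669 counts left in other nuclear genes, the fewest of all, and BAP replicate 1 at 24 h had 32.5%. The 42 members together received between 13478 and 125829 counts per library, which was 0.207 to 0.382% of the nuclear counts outside ribosomal RNA. Counts of AXR3, which cannot be told apart from those of the axr3-1 transgene, averaged 159 ± 24.6 CPM (counts scaled to the size of each library) in EST roots and 49.4 ± 1.47 CPM in DMSO roots at 4 h, a log2 fold change of 1.69 (SE 0.13, adjusted p = 0.0298). At 24 h AXR3 averaged 85.1 ± 4.27 CPM in EST roots and 71.8 ± 4.62 CPM in DMSO roots, a log2 fold change of 0.23 (SE 0.08, adjusted p = 0.0720) by edgeR's quasi-likelihood test, and BAP roots, with no estradiol, held 205 ± 9.15 CPM. The cambium gene ANT was well measured (105 ± 17.8 CPM in DMSO roots at 24 h), and the root-tip genes PLT1, PLT2, WOX5 and BBM averaged 0.340 to 1.07 CPM in DMSO roots. The leaf gene RBCS1A was present at 222 ± 23.3 CPM in the same DMSO roots.

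Members of 1 class can encode the same protein from different transcripts. All 5 H3.1 genes encode 1 identical protein of 136 residues and all 8 H4 genes 1 identical protein of 103 residues, while the 11 H2B genes encode 11 different proteins of 126 to 243 residues. Identities are matching residues over the length of the longer protein, using the longest annotated protein of each gene. The H3.3 protein annotated for AT4G40040 and AT5G10980 differs from H3.1 at 4 of 136 residues, an identity of 97.1%. The longest one annotated for AT4G40030 has 164 residues and is 82.9% identical to AT4G40040, a value that its extra length alone gives. Within H2A.Z, HTA9 is 83.8% identical to HTA11 and 79.4% identical to HTA8. HIS1-3, the stress-inducible linker histone, is short at 167 residues. Its identity with AT1G06760, which has 274, is 28.1%, a value that the difference in length also lowers. At the level of transcripts most members were separable: of the 31-base words of a transcript, 98.5% were found in no other gene for AT1G09200 and 100% for HTA8, HTA9 and HTA11. The share was 40.7% for HTA3, which overlaps annotated neighbours, 59.8% for AT1G06760, 60.7% for HTB9, 61.3% for AT1G07660, 61.9% for AT3G27360, 64.7% for AT3G46320 and 67.3% for AT3G45930, so the estimated counts of these genes are less certain.

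Promoters of plant histone genes are known for short shared motifs, and the stretches shown here are those of the members on which the comparisons turn. Each runs over the 150 bases up to the annotated transcript start, read on the strand of the gene from the RefSeq TAIR10.1 genome. Capitals mark the octamer CGCGGATC (GATCCGCG where it lies on the other strand) or the hexamer core ACGTCA, and no base belonged to both. AT1G09200 (chr1:2972335-2972484, minus strand) is an H3.1 gene and AT5G59690 (chr5:24051324-24051473, plus strand) the most abundant H4 gene. AT4G40040 (chr4:18558946-18559095, minus strand) encodes H3.3 and AT1G06760 (chr1:2077768-2077917, minus strand) linker H1, and both are shown because they carry the octamer outside the replication-dependent classes. AT3G53650 (chr3:19889147-19889296, plus strand) and AT2G28720 (chr2:12326658-12326807, plus strand) are H2B genes that moved in opposite directions with BAP and share the hexamer core.
AT1G09200: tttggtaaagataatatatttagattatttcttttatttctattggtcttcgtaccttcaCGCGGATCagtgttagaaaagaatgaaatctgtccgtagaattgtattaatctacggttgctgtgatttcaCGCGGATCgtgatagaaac
AT5G59690: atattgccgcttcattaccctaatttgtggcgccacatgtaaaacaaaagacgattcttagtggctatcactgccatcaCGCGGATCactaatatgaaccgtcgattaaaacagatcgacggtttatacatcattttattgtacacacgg
AT4G40040: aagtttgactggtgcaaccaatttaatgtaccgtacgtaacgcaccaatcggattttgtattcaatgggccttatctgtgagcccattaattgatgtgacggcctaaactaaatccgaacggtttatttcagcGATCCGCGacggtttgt
AT1G06760: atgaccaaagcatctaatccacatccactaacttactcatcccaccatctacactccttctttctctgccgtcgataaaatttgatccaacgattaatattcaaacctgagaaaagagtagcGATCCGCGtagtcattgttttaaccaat
AT3G53650: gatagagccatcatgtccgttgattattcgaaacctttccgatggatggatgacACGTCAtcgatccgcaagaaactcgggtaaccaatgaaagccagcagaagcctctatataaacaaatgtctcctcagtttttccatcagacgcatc
AT2G28720: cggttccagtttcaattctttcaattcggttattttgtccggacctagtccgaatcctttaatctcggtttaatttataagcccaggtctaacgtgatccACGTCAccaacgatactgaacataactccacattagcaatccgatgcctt

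Over windows from 250 bases before to 50 bases after the start, on both strands, the octamer occurred in 10 of the 42 members (23.8%) and in 40 of all 27443 protein-coding genes (0.146%). The members with it were AT5G65360, AT1G09200 and AT5G10400 of the H3.1 class, AT1G07660 and AT5G59690 of H4, HTA10 and HTA13 of H2A, HTA6 of H2A.W, AT4G40040 of H3.3 and AT1G06760 of H1. None of the 11 H2B promoters had it, and 9 of them had the hexamer core, which occurred in 13 members and in 9.19% of all promoters. The nonamer CATCCAACG was in 0 members and in 0.171% of all promoters. An E2F core, TTTCCCGC or TTTGGCGC, was in 2 members, the H4 genes AT3G45930 and AT3G46320, and in 1.21% of all promoters. A match describes these letters and is no evidence of binding.

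The H3.3 genes, 1 linker gene and 1 H2A.Z gene were the most abundant members per length. Over all 24 libraries, in CPM per kilobase of annotated transcript (CPM per kb), the H3.3 genes AT4G40040, AT4G40030 and AT5G10980 averaged 220.3, 174 and 121, ranks 1, 2 and 4 of the 42. The linker gene AT1G06760 took rank 3 with 128 CPM per kb and the H2A.Z gene HTA9 rank 5 with 111, while the other H2A.Z genes were far lower, HTA11 at rank 25 with 34.4 and HTA8 at rank 36 with 11.8 CPM per kb. Rank 6 and below were replication-dependent H2B genes, HTB11 with 109.5, HTB4 with 102 and HTB9 with 99.1 CPM per kb, then HTA10 with 96.8 and AT5G59690 with 96.2. Neighbouring ranks mostly overlapped: AT4G40040 ranged over 186 to 252 and AT4G40030 over 153 to 210.0 CPM per kb. Single genes led some classes, with HTA9 holding 70.6% of H2A.Z, HTA10 56.7% of H2A, AT5G65360 30.7% of H3.1 and AT5G59690 26.8% of H4. At the other end, the H2B gene AT1G08170 had 0.0531 CPM per kb, under the low-count filter of every test, so 41 of the 42 members were tested.

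Summed per kb, the replication-dependent histones spread widely over the 8 groups and the H3.3 genes little, with H2A.Z between them. The 28 genes for H3.1, H4, H2A and H2B together averaged 1109 ± 159.8 CPM per kb in EST, 1569 ± 181 in BAP and 1389.7 ± 107 in EST+BAP roots at 4 h, against 1011 ± 112 in DMSO roots (SD, n = 3 each). At 24 h the same sum was 714 ± 58.8 CPM per kb in EST, 1917 ± 161 in BAP and 1263 ± 2.72 in EST+BAP roots, against 881 ± 59.4 in DMSO roots. Replacement histones, the 6 genes for H3.3 and H2A.Z, had group means of 635 to 704 CPM per kb in all 8 groups, a sum made up mostly of H3.3 (498 to 555). H3.3 was not constant: at 24 h its sum in EST roots (545, 546 and 574 CPM per kb) lay above that in DMSO roots (506, 489 and 505). H2A.Z alone had 134 ± 7.37 in EST and 204 ± 7.37 in BAP roots, against 135 ± 4.98 CPM per kb in DMSO roots at 24 h, where BAP and DMSO libraries did not overlap (SD, n = 3 each). In bulk tissue, fewer cells of a type and less RNA per cell cannot be told apart.

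**Figure D1:**
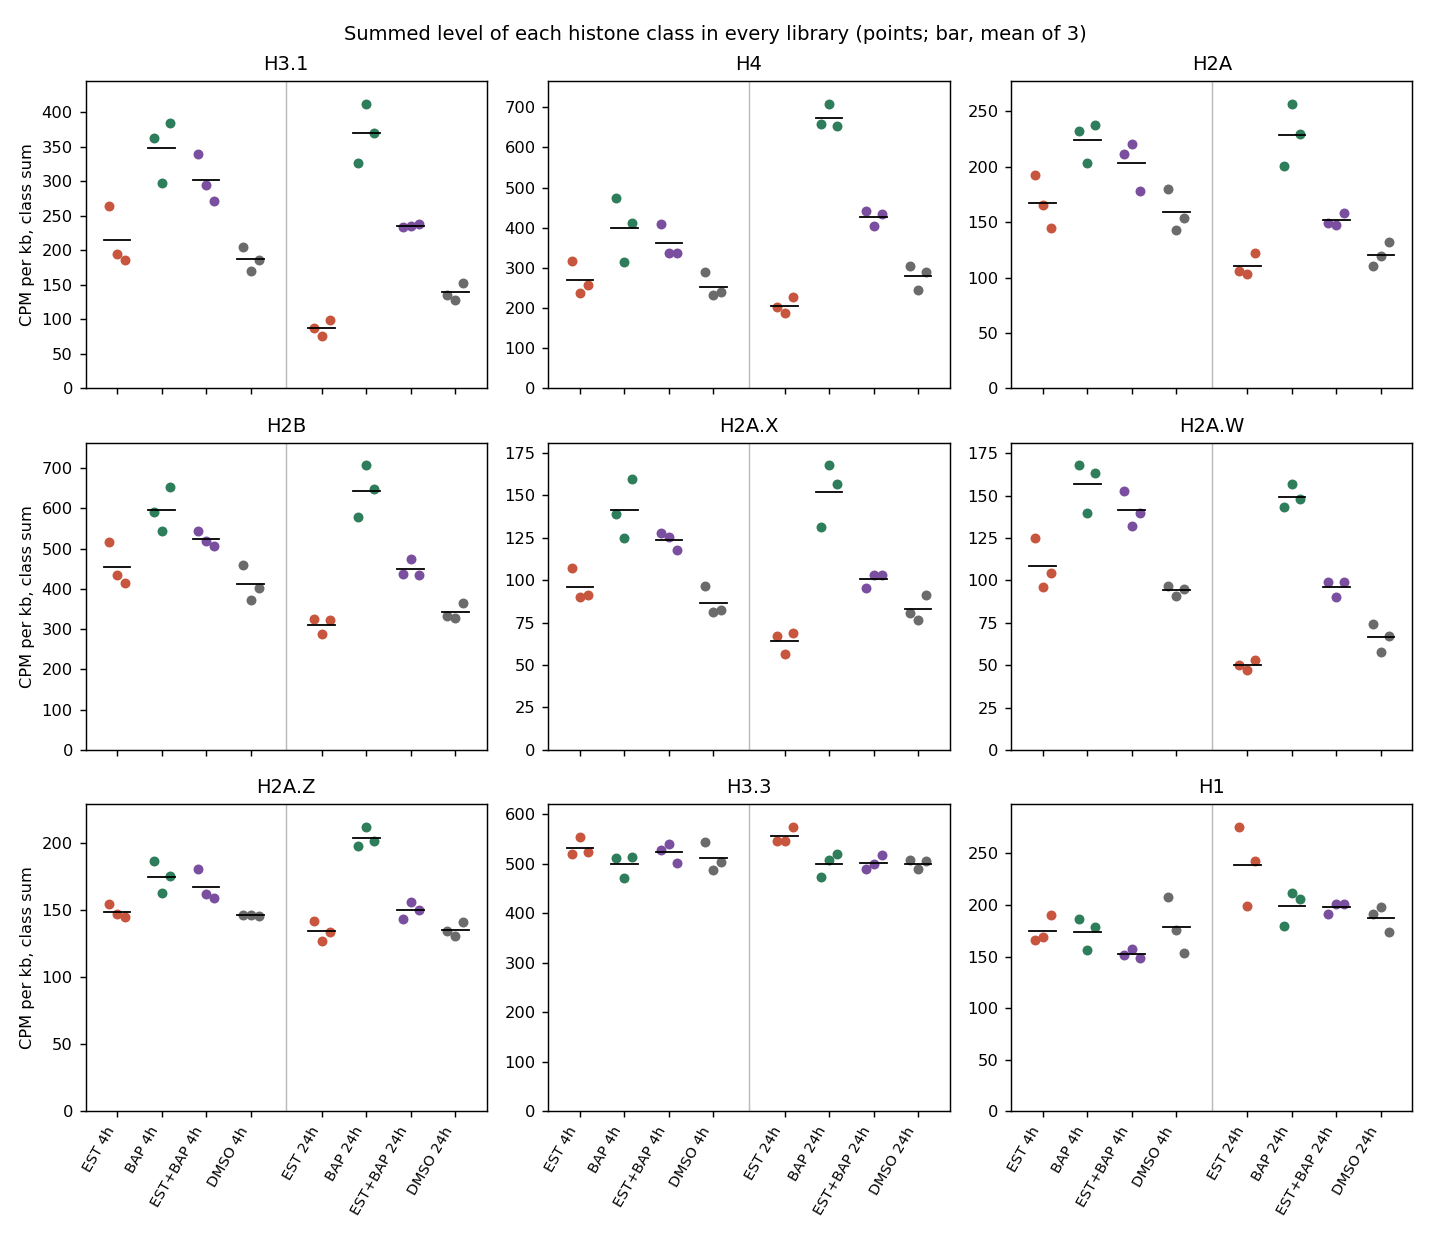
Summed CPM per kb of each histone class (9 panels) in the groups EST, BAP, EST+BAP and DMSO at 4 h and then 24 h; each point is 1 library and each bar the mean of 3. H3.1 at 24 h averages 369.7 in BAP and 87.0 in EST roots against 139 in DMSO roots, while H3.3 stays between 498 and 555.

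The balance of the H3 forms shows this within each library. H3.1 made up 33.8, 26.0 and 26.2% of the H3.1 plus H3.3 sum in EST roots at 4 h, 41.5, 38.7 and 42.8% in BAP, 39.2, 35.3 and 35.0% in EST+BAP, and 27.4, 25.8 and 27.1% in DMSO roots. BAP and EST+BAP libraries all lay above the DMSO libraries, and EST libraries did not separate from them. At 24 h the share was 13.8, 12.1 and 14.7% in EST, 40.8, 44.8 and 41.6% in BAP and 32.2, 32.1 and 31.5% in EST+BAP roots, against 21.1, 20.8 and 23.2% in DMSO roots. The 4 groups did not overlap at 24 h, in the order BAP, EST+BAP, DMSO, EST. As a log2 ratio, H3.1 over H3.3 averaged −2.68 ± 0.16 in EST, −0.44 ± 0.12 in BAP and −1.09 ± 0.03 in EST+BAP roots, against −1.85 ± 0.11 in DMSO roots at 24 h (SD, n = 3 each). The EST value holds both a lower H3.1 sum and a slightly higher H3.3 sum than in DMSO roots. The ratio of all replication-dependent to replacement histones gave the same order, 0.05 ± 0.08 in EST, 1.44 ± 0.08 in BAP and 0.95 ± 0.03 in EST+BAP roots, against 0.47 ± 0.07 in DMSO roots. An exact permutation test of 3 against 3 libraries cannot go below p = 0.10, so these sums and ratios are given without a test, and tests were made gene by gene.

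Genes were compared with edgeR's quasi-likelihood test fitted on the libraries of each pair of groups, with p-values adjusted over all genes tested. A gene is said to have risen or fallen when its log2 fold change was at least 0.5 in size with an adjusted p of at most 0.05, and the standard error (SE) is the size of the log2 fold change over the square root of F. Beside each count of members stands the percentage of all tested genes that passed in the same direction. Every member that passed in any of the 10 pairwise comparisons had groups that did not overlap in CPM.

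**Figure D2:**
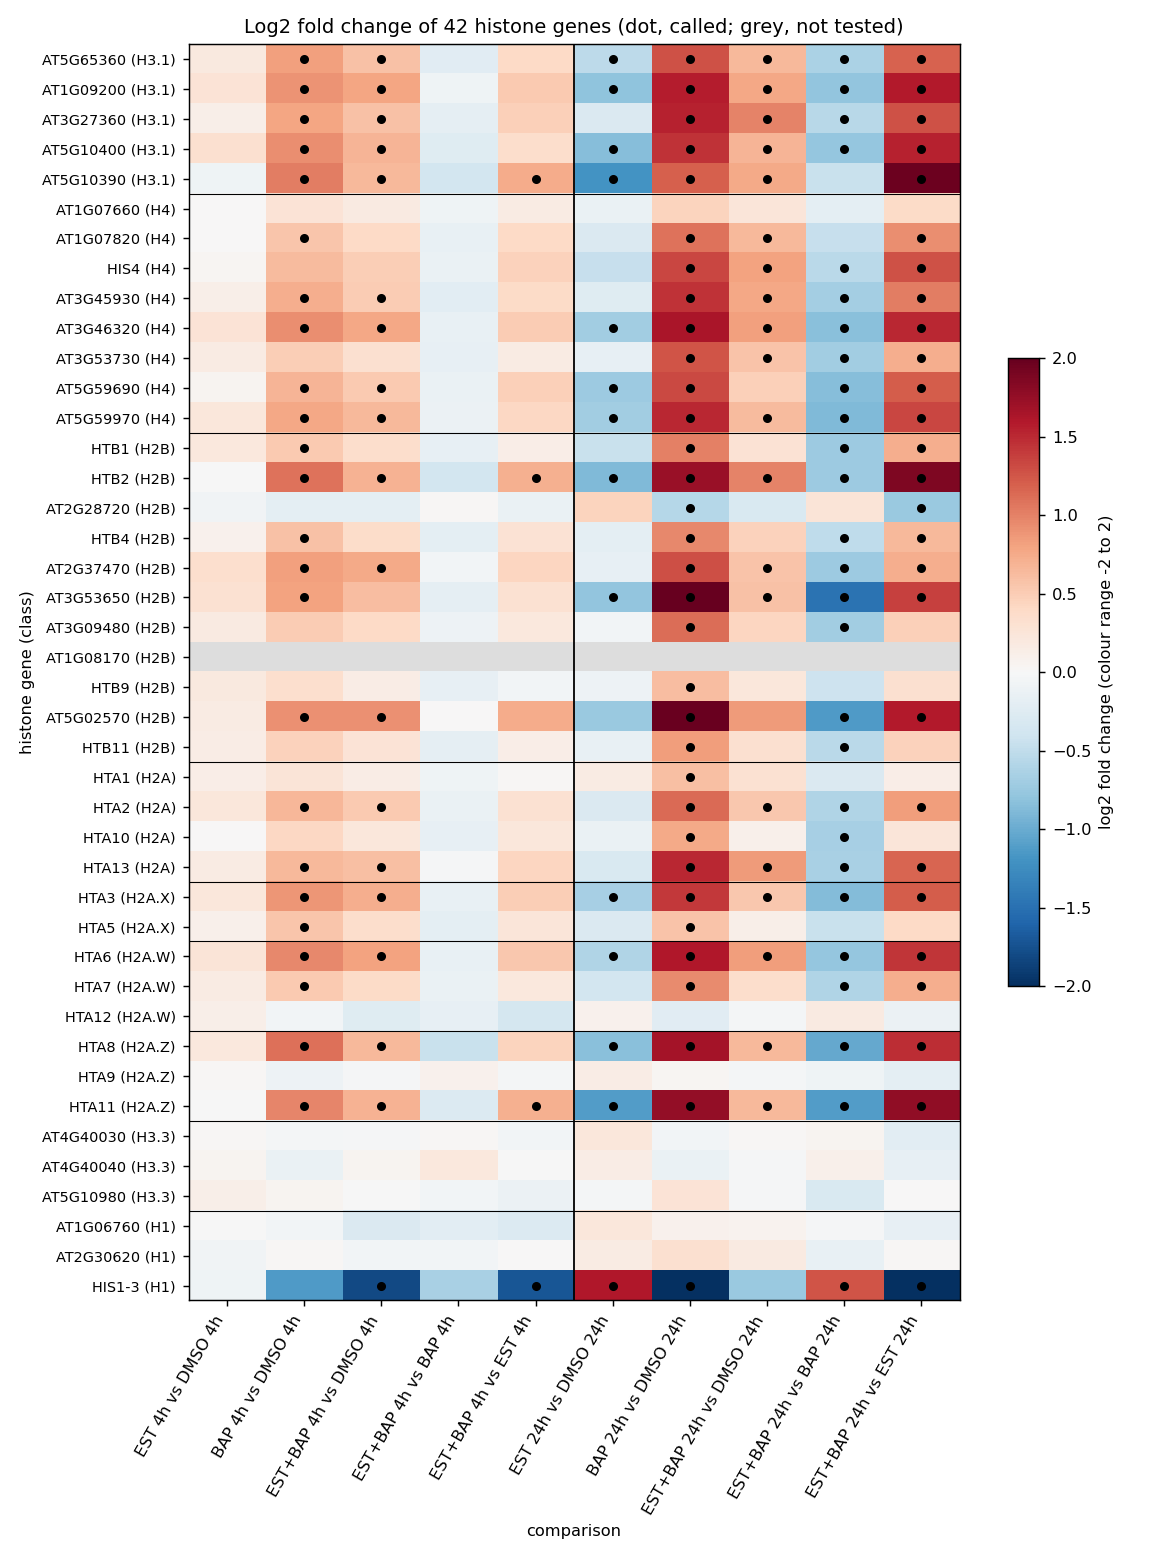
Log2 fold changes of the 42 histone genes (rows, by class) in the 10 pairwise comparisons (columns); a dot marks a gene that passed the test, and AT1G08170, not tested, is grey. In the replication-dependent rows the column for BAP against DMSO at 24 h holds the most dots, for 25 genes that rose and 1 that fell. The 3 H3.3 rows hold no dot.

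EST at 4 h left the histone genes without a call. None of the 41 tested members rose, where 0.00927% of 21574 genes did, and none fell, where 0.00464% did. The members' median log2 fold change was 0.12, and 34 of them lay above 0. Of all 21574 genes, 553 had an unadjusted p under 0.05. At an unadjusted p under 0.05, 1 member was found, the H2B gene AT2G37470, with 44.8, 36.2 and 36.7 CPM in EST and 34.5, 28.9 and 30.6 CPM in DMSO roots and a log2 fold change of 0.33 (SE 0.12, adjusted p = 1.000). DESeq2 likewise called 0 of the replication-dependent and 0 of the replacement genes. EST replicate 1 stood above the other EST libraries in several classes, with an H3.1 sum of 265 CPM per kb against 194 and 186, and it also had the most PLT1 of the EST libraries (4.14, 1.94 and 0.443 CPM), PLT2 (2.65, 1.18 and 0.649 CPM) and BBM (1.97, 0.820 and 0.325 CPM). The part of these root-tip markers in the histone values was not tested.

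BAP at 4 h raised 24 of the 41 tested members and lowered none, where 9.64% of 21486 genes rose and 7.14% fell. The median over the 27 tested replication-dependent genes was 0.67 and 18 of them rose, all 5 of H3.1, 5 of 8 of H4, 6 of 10 of H2B and 2 of 4 of H2A. Both H2A.X genes, HTA6 and HTA7 of H2A.W and HTA8 and HTA11 of H2A.Z rose as well. None of the 3 H3.3 genes and none of the 3 H1 genes passed. Effects ran from 0.52 for HTA7, 0.53 for HTB1 and 0.56 for AT1G07820 up to 1.03 for the H3.1 gene AT5G10390, 1.09 for HTB2 and 1.11 for HTA8. The median over all tested genes was −0.01. Leaving out BAP replicate 1 gave 14 replication-dependent genes and leaving out DMSO replicate 1 gave 22. The share of all genes that rose in those fits was not counted.

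With EST and BAP together for 4 h, 18 members rose and 1 fell relative to DMSO, where 6.38% of 21520 genes rose and 4.65% fell. The 14 replication-dependent genes among them were all 5 of H3.1, 4 of H4, 3 of H2B and 2 of H2A, with a median of 0.52 over the 27. HTA3, HTA6, HTA8 and HTA11 rose too, and the linker gene HIS1-3 fell. The largest effects were 0.91 for the H2B gene AT5G02570, 0.80 for AT1G09200 and 0.80 for HTA6, and the smallest that passed was 0.50 for the H4 gene AT3G45930. With the replicate number as a block, which these groups' deviations bore out, AT3G45930 had an adjusted p of 0.0133 but its effect rounded to 0.50 from below, so it no longer passed. The count of 14 changed with the library left out. It was 4 without DMSO replicate 2, 5 without EST+BAP replicate 1 and 9 without DMSO replicate 3. The count of replacement genes was 1 in place of 2 without DMSO replicate 2. Each of these fits had fewer libraries, and the share of all genes called in them was not counted.

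Set against BAP alone at 4 h, EST+BAP roots had no histone gene called higher, where 0.190% of 21530 genes were, and none called lower, where 0.144% were. At an unadjusted p under 0.05 were 5 of the 41 members and 2747 of all 21530 genes, a similar share. The members' median was −0.14, with 36 of 41 below 0 and 0 called by DESeq2 among the replication-dependent and the replacement genes. The smallest adjusted p was 0.150, for HTA8 at −0.44 (SE 0.11). Set against EST alone, 3 members rose and 1 fell in EST+BAP roots, where 4.16% of 21504 genes rose and 3.39% fell. These were AT5G10390 at 0.73 (SE 0.14, adjusted p = 0.0202), HTB2 at 0.70 (SE 0.14, adjusted p = 0.0257) and HTA11 at 0.70 (SE 0.10, adjusted p = 0.00978), and HIS1-3, which fell, at −1.71 (SE 0.19, adjusted p = 0.00398). The number of replication-dependent calls, 2, changed with any library left out. Without EST replicate 1 there were 11, and without EST replicate 3 or EST+BAP replicate 2 there was 1. Without EST replicate 2, EST+BAP replicate 1 or EST+BAP replicate 3 there were 0. The share of all genes called in these fits with fewer libraries was not counted. With the replicate number as a block, 5 passed, AT1G09200 among them at 0.53 (adjusted p = 0.0292). These comparisons share the EST+BAP libraries.

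After 24 h of EST, 13 members fell and 1 rose relative to DMSO, where 8.96% of 21235 genes fell and 6.26% rose. Replication-dependent genes accounted for 9 of the 13, with 4 of 5 H3.1 genes, 3 of 8 H4 genes, HTB2 and AT3G53650 of H2B, and none of the 4 H2A genes. Class medians were −0.81 for H3.1, −0.37 for H4, −0.18 for H2B and −0.22 for H2A. The others that fell were HTA3 of H2A.X, HTA6 of H2A.W, and HTA8 and HTA11 of H2A.Z, and the 1 that rose was HIS1-3. AT5G10390 at −1.20, HTA11 at −1.12 and HTB2 at −0.88 were the largest decreases. Without DMSO replicate 1 the counts were again 9 replication-dependent and 2 replacement genes lower. Without EST replicate 2, 1 replication-dependent gene was called higher, where there had been 0.

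BAP for 24 h had the widest effect on the set: 31 of 41 members rose and 2 fell, where 17.6% of 20832 genes rose and 17.2% fell. All 5 H3.1 genes, 7 of 8 H4 genes, 9 of 10 tested H2B genes and all 4 H2A genes rose, with class medians of 1.44, 1.33, 1.06 and 0.95. Both H2A.X genes, 2 of 3 H2A.W genes and 2 of 3 H2A.Z genes rose, and none of the 3 H3.3 genes passed. The H4 gene that did not pass, AT1G07660, had a log2 fold change of 0.44 (SE 0.10, adjusted p = 0.00611). The 2 that fell were the H2B gene AT2G28720 and the linker gene HIS1-3. The largest increases were AT3G53650 at 2.05, AT5G02570 at 1.97 and HTA11 at 1.76. Leaving out DMSO replicate 1 gave the same 25 and 1 replication-dependent and 2 replacement calls, and leaving out BAP replicate 1 gave 25 higher and 0 lower.

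With both agents for 24 h, 20 members rose and none fell relative to DMSO, where 10.4% of 21076 genes rose and 10% fell. DESeq2 also called 0 of the replication-dependent and 0 of the replacement genes lower. Among the 20 were all 5 H3.1 genes, 6 H4 genes, 3 H2B genes and 2 H2A genes, and HTA3, HTA6, HTA8 and HTA11. HTB2 (1.00, SE 0.09, adjusted p = 5.47e-05), AT3G27360 of H3.1 (0.99, SE 0.09, adjusted p = 4.19e-05) and HTA13 of H2A (0.86, SE 0.09, adjusted p = 0.000129) led, and the smallest to pass were HTA2 at 0.54, HTA3 at 0.55 and AT3G53730 of H4 at 0.56. Without DMSO replicate 1, HTA2 at 0.49 and HTA3 at 0.48 no longer passed, AT5G59690 did at 0.54 (adjusted p = 0.0127), and the counts remained 16 replication-dependent and 2 replacement genes.

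By the replication-dependent sum, the combined treatment stood between its parts at 24 h. That sum was 1263 CPM per kb in EST+BAP, 714 in EST and 1917 in BAP roots. The replacement sum was 652 CPM per kb in EST+BAP roots, below EST (689) and BAP (704). Relative to BAP alone, 26 members were lower and 1 higher in EST+BAP roots, where 11.8% of 21081 genes were lower and 11.6% higher. They included 21 replication-dependent genes, with AT3G53650 (−1.48, SE 0.13, adjusted p = 8.13e-05), AT5G02570 (−1.13, SE 0.22, adjusted p = 0.00369) and HTA11 (−1.12, SE 0.11, adjusted p = 0.000139) at the low end and HTB4 (−0.51), HTB11 (−0.53) and HIS4 (−0.54) closest to the limit. HIS1-3 was the 1 member that was higher. Relative to EST alone, 25 members were higher and 2 lower in EST+BAP roots, where 16.5% of 21490 genes were higher and 13.8% lower. The 20 replication-dependent genes that rose had AT5G10390 (1.96, SE 0.12, adjusted p = 6.65e-06) and HTB2 (1.87, SE 0.11, adjusted p = 4.72e-06) at their head, HTA11 rose by 1.77 (SE 0.08, adjusted p = 2.74e-06), and AT2G28720 and HIS1-3 were the 2 that fell. The EST+BAP libraries enter both comparisons.

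Whether EST and BAP together differed from the sum of their separate log2 effects was tested as an interaction over the 4 groups of each time, where an adjusted p of at most 0.05 was required and no size. At 4 h it called 0 of 21933 genes, 0% of all and 0 members, with a members' median of −0.31 and 38 of 41 values below 0, and DESeq2 called 0. Unadjusted p was under 0.05 for 7 of the 41 members and 893 of all 21933 genes. At 24 h the interaction called 1.40% of 21734 genes and 0 members. Unadjusted p was under 0.05 for 14 members, where it was for 3450 of all 21734 genes, and 35 of 41 members lay below 0 around a median of −0.24. The smallest adjusted p was 0.0533, for AT2G37470 at −0.57, and AT5G10390 went the other way at 0.75 (adjusted p = 0.0922). DESeq2 called 4 members at 24 h, AT2G37470 (−0.58, adjusted p = 0.0145), AT5G10390 (0.75, adjusted p = 0.0388), HTA10 (−0.53, adjusted p = 0.0448) and the H4 gene AT3G53730 (−0.53, adjusted p = 0.0498). The share of all genes that DESeq2 called was not counted, so whether these 4 exceed it was not tested. Without BAP replicate 1, edgeR called AT2G37470, at −0.67 (adjusted p = 0.0363).

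Among replicative H3 genes, AT1G09200 may stand for the class. At 4 h it had 80.9, 63.5 and 92.8 CPM in BAP and 78.4, 75.8 and 67.0 CPM in EST+BAP roots, against 47.6, 38.9 and 39.4 CPM in DMSO roots. At 24 h it had 15.6, 14.1 and 19.2 CPM in EST, 69.6, 97.1 and 85.2 in BAP and 45.5, 54.7 and 47.2 in EST+BAP roots, against 24.0, 25.7 and 34.4 CPM in DMSO roots. All BAP and EST+BAP libraries were above, and all 24 h EST libraries below, the DMSO libraries of their time. The log2 fold change was −0.81 (SE 0.15, adjusted p = 0.00591) with EST and 1.57 (SE 0.16, adjusted p = 6.96e-05) with BAP at 24 h. AT5G10390, which encodes the same protein at a lower level, had 4.53, 4.68 and 5.89 CPM in EST and 20.6, 30.8 and 27.1 CPM in BAP roots, against 11.1, 10.6 and 12.5 CPM in DMSO roots at 24 h. Its fold changes were −1.20 (SE 0.13, adjusted p = 0.000396) with EST and 1.19 (SE 0.15, adjusted p = 0.000236) with BAP. AT3G27360 was the H3.1 gene that did not pass with EST at 24 h, at −0.28 (SE 0.15, adjusted p = 0.215).

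H4, the partner of H3 in the nucleosome core, was led by AT5G59690. It had 33.2, 30.2 and 34.7 CPM in EST, 133, 146 and 126 in BAP and 82.1, 65.2 and 80.4 in EST+BAP roots, against 59.1, 48.0 and 55.4 CPM in DMSO roots at 24 h. EST and BAP libraries lay on either side of DMSO without overlap, with log2 fold changes of −0.73 (SE 0.10, adjusted p = 0.00116) and 1.32 (SE 0.11, adjusted p = 2.16e-05). EST+BAP was above every DMSO library, but at 0.48 (SE 0.12, adjusted p = 0.0129) it missed the size required. H4 genes did not move alike with EST at 24 h: AT5G59970 (−0.70), AT5G59690 and AT3G46320 (−0.70) fell, while AT1G07660 had −0.14 (SE 0.09, adjusted p = 0.326) and AT3G53730 −0.17 (SE 0.12, adjusted p = 0.358). AT3G46320 and AT3G45930, the pair with an E2F core, rose by 1.64 (SE 0.13) and 1.44 (SE 0.10) with BAP at 24 h, but they share much of their sequence and their counts are not independent.

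H2B genes, whose proteins all differ, held both the largest increase and the exception. AT3G53650 had 2.74, 1.80 and 2.54 CPM in EST, 16.2, 18.1 and 16.3 in BAP and 7.22, 5.82 and 5.33 in EST+BAP roots, against 3.92, 3.84 and 4.34 CPM in DMSO roots at 24 h. Each BAP library was above each EST+BAP library, each EST+BAP library above DMSO, and each EST library below it, with log2 fold changes of 2.05 (SE 0.12, adjusted p = 5.59e-06) for BAP and −0.78 (SE 0.20, adjusted p = 0.0196) for EST. HTB2 had 16.0, 13.4 and 17.7 CPM in EST, 84.2, 106 and 92.3 in BAP and 53.1, 62.2 and 57.8 in EST+BAP roots, against 27.2, 26.8 and 31.6 CPM in DMSO roots at 24 h. Its log2 fold changes were −0.88 (SE 0.12, adjusted p = 0.000971) with EST and 1.72 (SE 0.11, adjusted p = 9.65e-06) with BAP. HTB4, HTB9 and HTB11, the most abundant H2B genes per kb, moved less, by 0.96 (SE 0.11), 0.62 (SE 0.08) and 0.84 (SE 0.09) with BAP, and none of the 3 passed with EST at 24 h. AT5G02570 rose by 1.97 (SE 0.29) with BAP, from few reads (2.76, 3.41 and 2.81 CPM in BAP against 0.677, 0.528 and 1.05 CPM in DMSO roots), and it overlaps HTA12 on the opposite strand.

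AT2G28720 ran against the other H2B genes. At 24 h it had 52.8, 47.4 and 56.1 CPM in EST, 18.9, 32.2 and 25.6 in BAP and 27.4, 32.3 and 33.7 in EST+BAP roots, against 38.2, 37.2 and 38.9 CPM in DMSO roots. All EST libraries were above and all BAP libraries below DMSO, the reverse of the order seen for HTB2. It fell with BAP at −0.57 (SE 0.17, adjusted p = 0.0183), but without BAP replicate 1, the lowest of the 3, the value was −0.40 and under the size required. With EST it had 0.44 (SE 0.09, adjusted p = 0.00636), also short of that size, and in EST+BAP relative to EST it fell at −0.75 (SE 0.09, adjusted p = 0.000246). At 4 h the groups overlapped, with 22.1, 29.0 and 21.2 CPM in EST and 22.6, 20.6 and 23.8 CPM in BAP, against 32.7, 22.5 and 20.7 CPM in DMSO roots.

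Canonical H2A genes rose with BAP but none fell with EST at 24 h. HTA10, the most abundant, had 51.9, 54.5 and 64.1 CPM in EST, 90.7, 119 and 107 in BAP and 65.1, 66.0 and 71.2 in EST+BAP roots, against 55.5, 62.2 and 68.0 CPM in DMSO roots. BAP was above every DMSO library, at 0.76 (SE 0.12, adjusted p = 0.000660), while EST, at −0.14 (SE 0.11, adjusted p = 0.377), and EST+BAP, at 0.10 (SE 0.09, adjusted p = 0.431), overlapped DMSO. HTA13, encoding a protein of the same 132 residues in length, rose further with BAP, by 1.50 (SE 0.15, adjusted p = 5.53e-05), and had −0.31 (SE 0.10, adjusted p = 0.0561) with EST. Among the damage-marking H2A.X genes, HTA5 rose by 0.56 (SE 0.10, adjusted p = 0.00189) with BAP at 24 h and had −0.29 (SE 0.11, adjusted p = 0.0813) with EST. Of the heterochromatic H2A.W genes, HTA6 had 13.4, 12.8 and 13.9 CPM in EST and 57.0, 65.1 and 60.7 CPM in BAP, against 20.8, 17.4 and 22.4 CPM in DMSO roots at 24 h, with no overlap between groups, and HTA7 rose with BAP by 0.95 (SE 0.13, adjusted p = 0.000332). HTA12, the third H2A.W gene, did not pass in any comparison and had −0.22 (SE 0.14, adjusted p = 0.212) with BAP at 24 h.

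The H2A.Z genes did not behave as 1 replacement class. HTA11 had 23.5, 21.3 and 21.5 CPM in EST, 49.4, 40.7 and 42.6 in BAP and 39.6, 37.3 and 32.5 in EST+BAP roots, against 22.1, 21.1 and 23.8 CPM in DMSO roots at 4 h. At 24 h it had 8.30, 8.28 and 9.40 CPM in EST, 56.8, 73.7 and 59.4 in BAP and 29.0, 28.5 and 31.3 in EST+BAP roots, against 18.5, 16.2 and 21.5 CPM in DMSO roots. The 4 groups were apart at 24 h, with log2 fold changes of −1.12 (SE 0.12, adjusted p = 0.000340) for EST, 1.76 (SE 0.14, adjusted p = 2.08e-05) for BAP and 0.64 (SE 0.11, adjusted p = 0.00196) for EST+BAP. HTA8 had 4.05, 3.34 and 3.01 CPM in EST, 16.7, 22.6 and 18.8 in BAP and 10.3, 10.03 and 8.84 in EST+BAP roots, against 6.50, 6.02 and 6.07 CPM in DMSO roots at 24 h, and it passed with EST at −0.83 (SE 0.15, adjusted p = 0.00493) and BAP at 1.66 (SE 0.14, adjusted p = 2.37e-05). HTA9 had 107, 95.7 and 101 CPM in EST, 96.6, 87.1 and 95.5 in BAP and 83.8, 95.1 and 88.2 in EST+BAP roots, against 89.6, 89.3 and 92.4 CPM in DMSO roots at 24 h. It passed in none of the 10 comparisons, at 0.15 (SE 0.08, adjusted p = 0.197) with EST and 0.04 (SE 0.08, adjusted p = 0.717) with BAP at 24 h. Within a library, the log2 ratio of HTA11 to HTA9 per kb averaged −3.63 ± 0.14 in EST, −0.65 ± 0.28 in BAP and −1.67 ± 0.13 in EST+BAP roots, against −2.36 ± 0.18 in DMSO roots at 24 h (SD, n = 3 each).

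**Figure D3:**
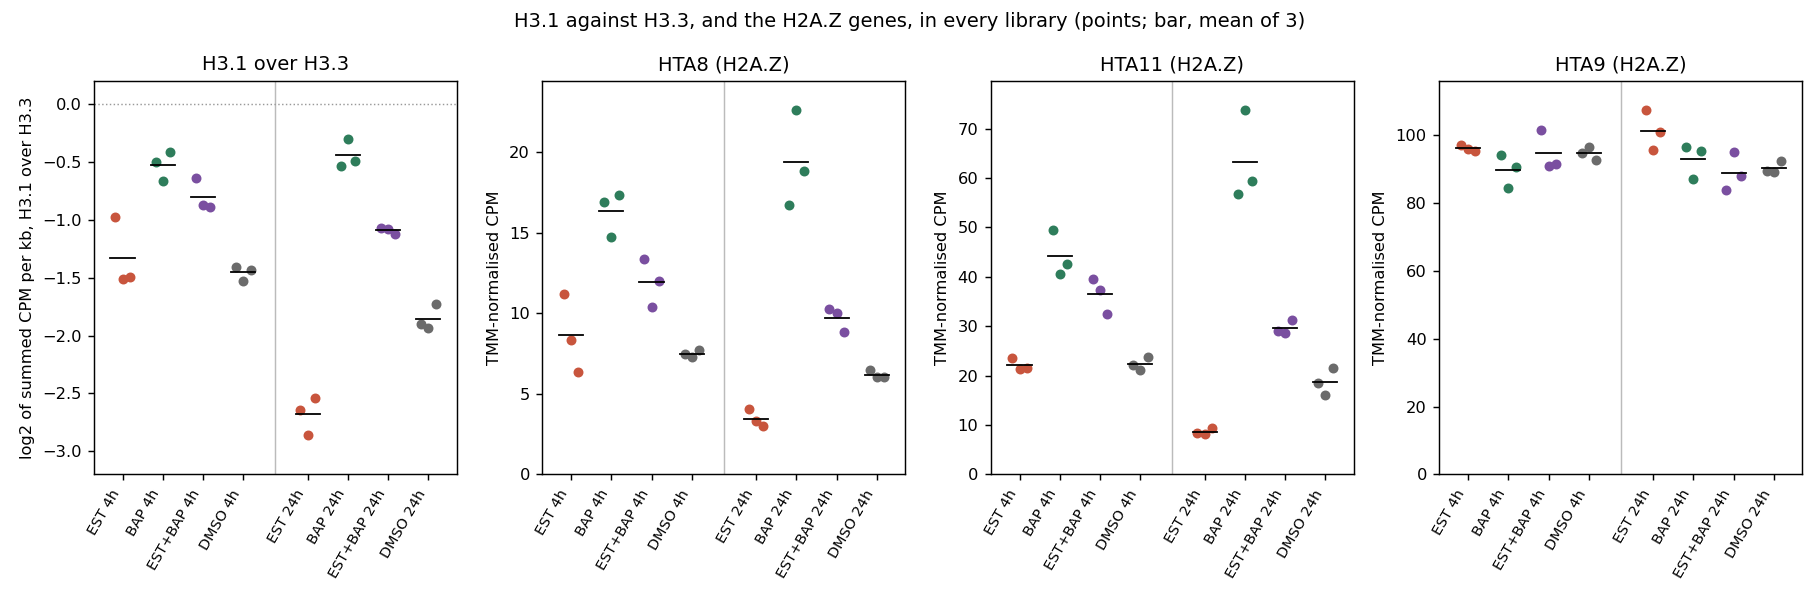
The log2 ratio of H3.1 to H3.3 per kb and the CPM of the H2A.Z genes HTA8, HTA11 and HTA9, for each library (points) and group mean (bars), in the groups EST, BAP, EST+BAP and DMSO at 4 h and 24 h. The H3.1 to H3.3 ratio averages −2.68 in EST and −0.44 in BAP against −1.85 in DMSO roots at 24 h, HTA8 and HTA11 follow the same order, and HTA9 lies between 83.8 and 107 CPM in the 24 h libraries.

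The 3 H3.3 genes passed in no comparison. AT4G40040 had 318, 324 and 321 CPM in EST, 254, 269.7 and 269 in BAP and 289, 277 and 293 in EST+BAP roots, against 311, 276 and 278 CPM in DMSO roots at 24 h. AT4G40030 had 199.6, 204 and 218 CPM in EST, 158, 173 and 178 in BAP and 167, 182 and 188 in EST+BAP roots, against 165, 175 and 184 CPM in DMSO roots. Both were highest in EST, at 0.14 (SE 0.09, adjusted p = 0.290) and 0.23 (SE 0.09, adjusted p = 0.0829) relative to DMSO. AT5G10980 had an adjusted p within the limit but a small effect with BAP at 24 h, 0.28 (SE 0.08, adjusted p = 0.0154), and in EST+BAP relative to BAP, −0.31 (SE 0.06, adjusted p = 0.00543). The size required would have hidden changes below it in these genes, and the SEs of the 3 in the 24 h BAP comparison were 0.09, 0.09 and 0.08.

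The linker histones split as well. AT1G06760, of rank 3 per kb, passed in no comparison and had 0.23 (SE 0.13, adjusted p = 0.231) with EST and 0.08 (SE 0.10, adjusted p = 0.498) with BAP at 24 h. AT2G30620 had 0.32 (SE 0.09, adjusted p = 0.0167) with BAP at 24 h, within the adjusted p but under the size required. HIS1-3, known to be induced by drought and abscisic acid, had 39.8, 28.3 and 26.0 CPM in EST, 3.02, 1.61 and 3.14 in BAP and 5.205, 7.97 and 5.16 in EST+BAP roots, against 12.05, 14.6 and 4.83 CPM in DMSO roots at 24 h. EST was above and BAP below all DMSO libraries, of which replicate 3 was the lowest. It rose with EST at 1.60 (SE 0.34, adjusted p = 0.00927), fell with BAP at −2.02 (SE 0.41, adjusted p = 0.00328), and was higher in EST+BAP than in BAP at 1.25 (SE 0.27, adjusted p = 0.00632). Relative to EST alone, EST+BAP roots had less HIS1-3 at 4 h, −1.71 (SE 0.19, adjusted p = 0.00398), and at 24 h, −2.33 (SE 0.21, adjusted p = 3.52e-05).

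For HIS1-3 some calls turned on the fit or on 1 library. In EST+BAP relative to DMSO at 24 h it had −0.75 (SE 0.35, adjusted p = 0.137), with an overlap of the groups, but −0.70 (adjusted p = 0.0342) with the replicate number as a block and −1.14 (adjusted p = 0.00444) without DMSO replicate 3. With BAP at 4 h it had 3.65, 1.30 and 1.98 CPM in BAP and 7.58, 4.32 and 3.51 CPM in DMSO roots. That difference, −1.13 (SE 0.41, adjusted p = 0.0805), did not pass, but it did in DESeq2, at −1.16 (adjusted p = 0.0172), in a fit of all 4 groups, at −1.14 (adjusted p = 0.0356), and without BAP replicate 1, at −1.66 (adjusted p = 0.0371). With both agents at 4 h it had 1.55, 1.60 and 1.30 CPM, below every DMSO library, at −1.81 (SE 0.31, adjusted p = 0.0105).

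**Figure D4:**
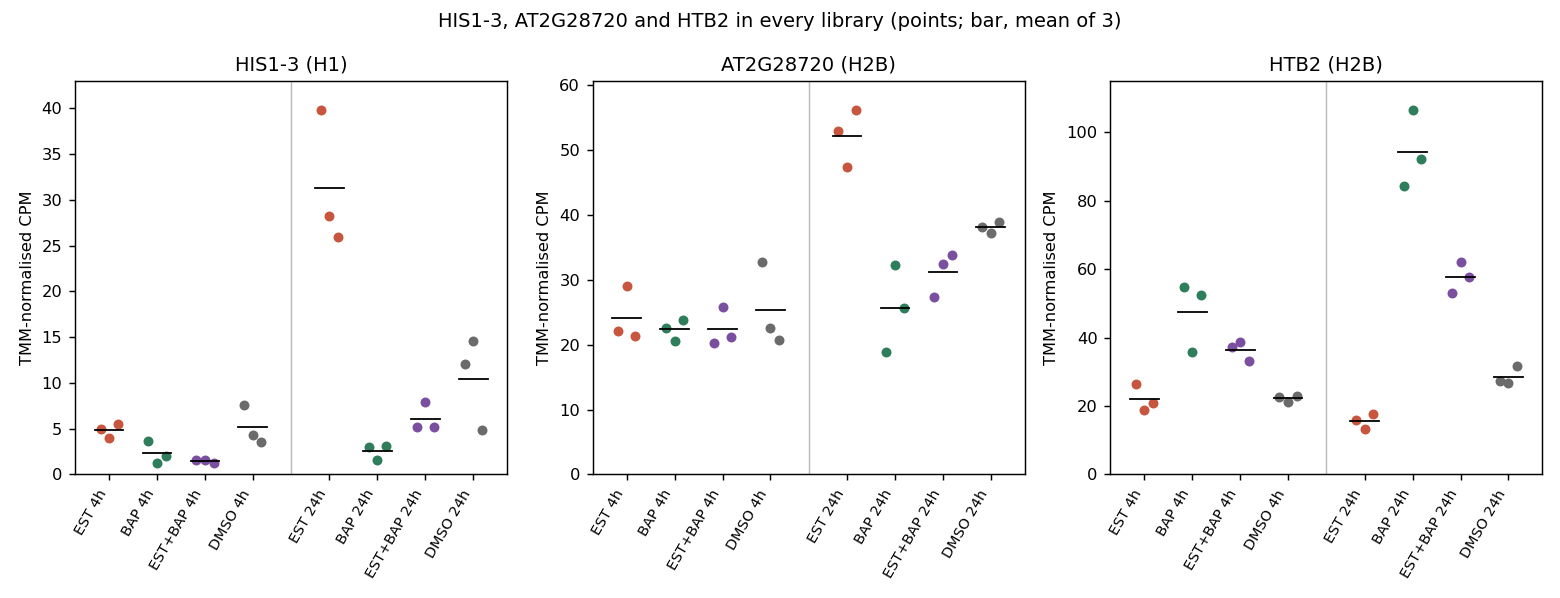
CPM of the linker gene HIS1-3 and the H2B genes AT2G28720 and HTB2 in each library (points) with group means (bars), in the groups EST, BAP, EST+BAP and DMSO at 4 h and 24 h. At 24 h HIS1-3 averages 31.3 in EST and 2.59 in BAP against 10.5 in DMSO roots, AT2G28720 is also high in EST and low in BAP, and HTB2 is in the opposite order.

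The EST and BAP effects were also compared between 24 h and 4 h, a test chosen after seeing the data, and one that crosses the separate experiments of the 2 times. The EST effect differed for 9 members, each lower at 24 h, where 5.18% of 22021 genes differed in either direction. HTA11, at −1.11 (SE 0.16, adjusted p = 0.00358), and AT5G10400, at −1.18 (SE 0.20, adjusted p = 0.00858), were the clearest. The BAP effect differed for 8 members, each higher at 24 h, where 6.82% of 21726 genes differed, with AT3G53650 at 1.27 (SE 0.18, adjusted p = 0.00215) in front. AT3G53650 had 9.996, 8.08 and 10.13 CPM in DMSO roots at 4 h, so that its level with BAP at 4 h (17.5, 14.03 and 18.1 CPM) was near that at 24 h while its DMSO level was not.

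Members with and without the octamer were found among those that rose and those that did not rise with BAP at 24 h. The same held for the hexamer core. For the counts that follow, 17.6% of all tested genes rose and 17.2% fell with BAP at 24 h. With EST at 24 h, 6.26% rose and 8.96% fell. Of the 10 members with the octamer, 7 rose with BAP at 24 h with a median of 1.29, and of the 31 tested members without it, 24 rose and 2 fell with a median of 1.12. With EST at 24 h, 5 of the 10 fell with a median of −0.42, and of the 31 without it 8 fell and 1 rose with a median of −0.28. Within the replication-dependent classes 6 of 7 genes with the octamer rose with BAP, with a median of 1.32, and 19 of 20 without it rose and 1 fell, with a median of 1.22. In the same classes 4 of 7 genes with the octamer fell with EST, with a median of −0.53, and 5 of 20 without it, with a median of −0.28. The H3.3 gene AT4G40040 and the H1 gene AT1G06760, whose octamers are printed here, did not pass at either time with EST, BAP or both. Of 13 members with the hexamer core, 11 rose and 1 fell with BAP at 24 h with a median of 1.09, and the 28 without it had 20 that rose and 1 that fell around 1.17. The printed promoters of AT3G53650 and AT2G28720 both hold that core, in the members with the highest and the lowest BAP effect among H2B genes. These are descriptions of the set, without a test.

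**Figure D5:**
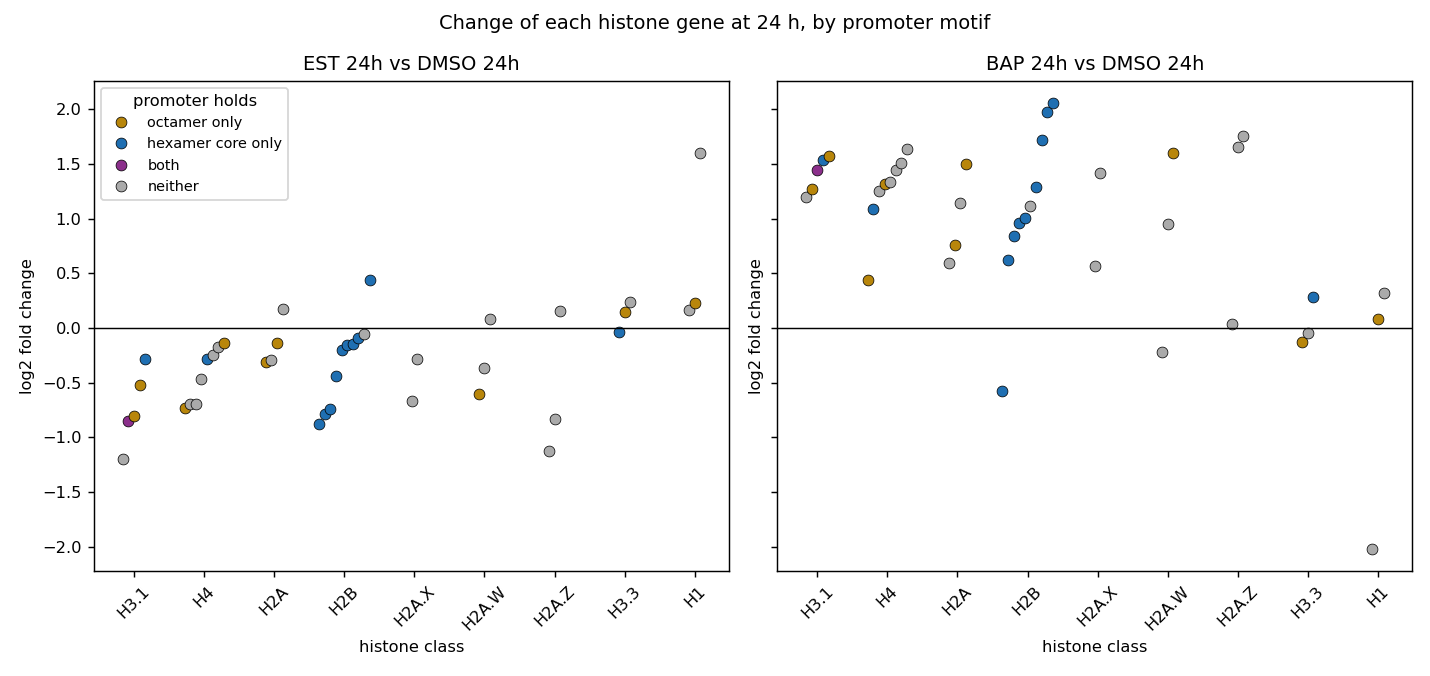
Log2 fold change of each tested histone gene with EST at 24 h and with BAP at 24 h, by class, coloured by the motifs in its promoter (octamer, hexamer core, both or neither). Members with the octamer have medians of −0.42 with EST and 1.29 with BAP, and members with the octamer alone, the hexamer core alone or neither lie on both sides of these.

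Genes that handle histones were followed in a list of 24 chaperones and remodellers. With BAP at 24 h 9 of the 24 rose, where 17.6% of all tested genes did, and none fell, with a list median of 0.36 against −0.02 over all genes. They were the large CAF-1 subunit FAS1 (1.04, SE 0.09, adjusted p = 3.41e-05), the CAF-1 subunit MSI1, the H2A-H2B chaperones NRP1 (1.20, SE 0.09, adjusted p = 1.31e-05), NRP2, NAP1;1 and NAP1;2, AT4G37210, TSK (1.16, SE 0.14, adjusted p = 0.000147), which recognises newly replicated H3.1 nucleosomes, and the H3.1 methyltransferase ATXR6 (1.41, SE 0.37, adjusted p = 0.0116). With EST at 24 h 3 of the 24 fell, where 8.96% of all genes did (list median −0.09, against 0.01 over all genes), FAS1 (−0.89, SE 0.10, adjusted p = 0.000390), its CAF-1 partner FAS2 (−0.87, SE 0.16, adjusted p = 0.00440) and TSK (−1.01, SE 0.14, adjusted p = 0.00104). At 4 h, 0 passed with EST, and 5 rose with BAP, where 9.64% of all genes rose, TSK, NRP2, FAS1, NRP1 and NAP1;1. HIRA, UBN1, UBN2, CABIN1 and ATRX, which serve H3.3, and PIE1, ARP6 and SWC6, which serve H2A.Z, passed in no comparison. With both agents 5 of the 24 rose at 4 h relative to DMSO, where 6.38% of all genes did, and 4 at 24 h, where 10.4% did. In EST+BAP relative to BAP, 0 passed at 4 h and 4 were lower at 24 h, where 11.8% of all genes were. Relative to EST, 3 were higher at 4 h, where 4.16% of all genes were, and 7 at 24 h, where 16.5% were.

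S-phase genes passed in the comparisons with BAP and, at 24 h, with EST, while the cell-type lists were mixed. Of all tested genes, 9.64% rose with BAP at 4 h, and 17.6% rose and 17.2% fell with BAP at 24 h. With EST at 24 h, 6.26% rose and 8.96% fell. All 12 S-phase genes listed (PCNA, MCM and related genes) rose with BAP at 4 h (median 1.00) and at 24 h (median 1.12), and all 12 fell with EST at 24 h (median −1.18), while 0 passed with EST at 4 h. In EST+BAP relative to DMSO, 9 rose at 4 h, where 6.38% of all genes did, and 9 at 24 h, where 10.4% did. At 24 h, 7 were lower than in BAP, where 11.8% of all genes were, and 12 higher than in EST, where 16.5% were. The EST by BAP interaction at 24 h had a median of 0.63 over the 12, all above 0, against −0.24 over the histone members and 0.01 over the H3.1 genes, of which 3 of 5 lay above 0. By edgeR, which called no histone gene there while DESeq2 called 4, it called 1.40% of all genes. Among these were 3 of the 12, MCM3 (0.80, SE 0.14, adjusted p = 0.0174), MCM5 (0.66, SE 0.11, adjusted p = 0.0167) and MCM4 (0.67, SE 0.15, adjusted p = 0.0497), and the chaperone gene FAS1 (0.50, SE 0.11, adjusted p = 0.0426). Of 6 mitotic (G2/M) genes, 0 passed with BAP at 4 h, 6 rose with BAP at 24 h (median 1.65), 3 fell with EST at 24 h, and 6 were lower in EST+BAP than in BAP at 24 h. Their EST by BAP interaction at 24 h had a median of −0.41, with all 6 below 0 and 1 called by edgeR. Of 6 cambium genes, 6 fell with EST at 24 h and 3 rose with BAP, with ANT at −2.58 (SE 0.18, adjusted p = 5.45e-05) and 1.07 (SE 0.13, adjusted p = 0.000179), and ANT had 13.1, 21.1 and 19.2 CPM in EST and 197, 231 and 238 CPM in BAP, against 98.3, 92.4 and 126 CPM in DMSO roots. Of 3 leaf genes, 3 fell with BAP and 1 rose with EST at 24 h. Of 3 phloem genes, 2 fell with EST and 1 with BAP at 24 h, of 2 endodermis genes 1 rose with BAP, and of 2 xylem genes and 3 tested root-tip genes none passed with EST or BAP at 24 h. In EST+BAP relative to BAP at 24 h, 26 histone genes were lower, where 11.8% of all genes were lower and 11.6% higher. There both xylem genes (median 0.88), 2 of 3 leaf genes and 1 phloem gene were higher. In the same comparison 3 cambium and 2 phloem genes were lower, and no endodermis or root-tip gene passed. Relative to DMSO at 24 h, EST+BAP roots had 1 xylem, 1 phloem and 1 endodermis gene higher, 2 phloem and 2 leaf genes lower and no cambium gene called. Relative to EST at 24 h, 16.5% of all genes were higher and 13.8% lower in EST+BAP roots. There 5 cambium genes, 1 phloem and 1 endodermis gene were higher, 1 phloem and 3 leaf genes lower, and no xylem or root-tip gene passed. The part of these markers in the histone results was not tested.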

How the data were processed

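Processed values were the estimated counts per gene that the authors deposited for all 24 libraries. According to the submitters' notes and the study's methods, reads were checked with FastQC, trimmed with Trimmomatic 0.36 and quantified with kallisto 0.43.0. Transcripts of the AtRTD2 set were quantified and the authors summed the estimated counts per gene, deposited as whole numbers and used here as deposited. Genes carry TAIR locus identifiers, of which 33437 of 34212 matched TAIR10.1. Whether quantification used the strand is not given in the sources used here, so overlapping and antisense genes are uncertain.

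Genes with a minimum count of 10 (edgeR's filterByExpr) were normalised by TMM and tested with edgeR 4.0.16 (glmQLFit and glmQLFTest, R 4.3.3), fitted on the libraries of the groups compared, with Benjamini-Hochberg adjustment over all tested genes. Levels are CPM with TMM factors over all 24 libraries, per kb by the TAIR10.1 transcript length. Promoters, proteins and 31-base words were read with Python 3.11.15 and Biopython 1.88. Each fit was repeated with a block for the replicate number, with all 4 groups of a time together, without 280 organelle and ribosomal RNA genes, without the filter on counts, with size factors from DESeq2 1.42.0, with the DESeq2 test itself, and leaving out every library once. The times were compared in an added fit chosen after seeing the data.

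The labels give all groups replicate numbers 1 to 3. Numbers were taken to pair samples where all 3 same-numbered pairs had deviations from the group means correlated above 0.1, which held for EST+BAP against DMSO (0.11 to 0.41), BAP (0.22 to 0.37) and EST (0.26 to 0.36) at 4 h, and for BAP (0.12 to 0.23) and EST+BAP (0.10 to 0.14) against DMSO at 24 h. No 2 libraries of a group were alike within counting noise (chi-square per degree of freedom at least 8.19).

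Genes named were the most abundant member of each class, all H3.3 and H1 genes, members moving against most of their class, the 3 lowest and 3 highest called members of each comparison, and members singled out after their values were seen. The histone members and the lists of chromatin assembly, S-phase, G2/M, cambium, root-tip, xylem, phloem, endodermis and leaf genes were chosen with earlier results of these data known. The scripts were tested on artificial data with known changes.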

Additional observations from a re-analysis of the deposited data

Results flagged for a closer look

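Several histone genes responded differently at 24 h than at 4 h, by edgeR's quasi-likelihood test of the difference between the effects at both times, a test chosen after seeing the data. The log2 effect of EST at 24 h minus that at 4 h was below 0 for HTA11 (−1.11, adjusted p = 0.00358), AT5G10400 (−1.18, adjusted p = 0.00858), AT5G10390 (−1.11, adjusted p = 0.0117), AT5G59690 (−0.79, adjusted p = 0.0179), HTB2 (−0.87, adjusted p = 0.0237), AT1G09200 (−1.08, adjusted p = 0.0262), HTA6 (−0.86, adjusted p = 0.0335), HTA8 (−1.05, adjusted p = 0.0410) and AT3G46320 (−0.97, adjusted p = 0.0476). They comprise 3 H3.1 genes, 2 H4 genes, 1 H2B gene, the H2A.W gene HTA6 and the 2 H2A.Z genes that also rose with BAP. The corresponding difference for BAP was above 0 for AT3G53650 (1.27, adjusted p = 0.00215), HTA11 (0.81, adjusted p = 0.0199), HTA13 (0.88, adjusted p = 0.0208), AT3G27360 (0.77, adjusted p = 0.0243), HTA6 (0.66, adjusted p = 0.0265), AT5G59690 (0.66, adjusted p = 0.0377), AT5G59970 (0.76, adjusted p = 0.0413) and AT3G45930 (0.74, adjusted p = 0.0497). These comparisons share the DMSO libraries within each time, and the 2 times were separate experiments.

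In 2 members the EST libraries lay above all DMSO libraries at 4 h and below all of them at 24 h. The share of all genes with the same reversal was not counted. Whether these 2 members exceed that share was therefore not tested. AT5G10400, an H3.1 gene, had 37.1, 26.6 and 25.6 CPM in EST and 25.3, 23.8 and 22.7 CPM in DMSO roots at 4 h, a log2 fold change of 0.32 that did not pass, and 10.9, 9.45 and 11.8 CPM in EST and 21.0, 17.5 and 19.9 CPM in DMSO roots at 24 h, a log2 fold change of −0.86 (adjusted p = 0.000948). AT2G37470, an H2B gene, had 15.5, 14.7 and 15.6 CPM in EST and 17.6, 15.9 and 17.4 CPM in DMSO roots at 24 h, a log2 fold change of −0.16, and 0.33 at 4 h, neither of which passed. For AT2G37470 the test of the difference between the times gave −0.49 (adjusted p = 0.0794).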

How the results depend on the processing

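Depth and the size required bound what could be seen: the members' counts were fewest in DMSO replicate 1 at 24 h, and changes under 0.5 on the log2 scale were not called. Of 250 counts of called members under other settings 243 stayed within 1.5 times the reported count, and of 264 with 1 library left out 251 did. Replication-dependent genes higher in EST+BAP than in EST at 4 h numbered 2, but 4 in DESeq2, 5 with the replicate block and 4 in a fit of all 4 groups, and 0 to 11 with 1 library left out. Members called by the EST by BAP interaction at 24 h numbered 0, but 1 without a filter on low counts, 4 in DESeq2, 1 with the replicate block, 1 with organelle and ribosomal RNA genes left out, and 0 to 1 with 1 library left out (HTA10 with the block, AT2G37470 in the other single calls, which without BAP replicate 1 gave −0.67, adjusted p = 0.0363). With 1 library left out, replication-dependent genes called higher in EST+BAP over DMSO at 4 h numbered 4 to 14 and replacement genes 1 to 2, those higher in EST at 24 h 0 to 1, and those lower in BAP at 24 h 0 to 1. The cause of these changes was not tested, beyond the fewer libraries in each fit. The share of all genes called was not counted under the other settings or with 1 library left out. Of 990 single-gene values under other settings 973 kept sign and call, 8 changed sign, 7 gained and 2 lost the call, and of 990 with 1 library left out 886 kept both, 48 changed sign, 9 gained and 47 lost the call. No value that changed sign was called on either side of 0. Under other settings AT5G10980 in EST+BAP over DMSO at 4 h, −0.00044 as reported, was 0.0022 with DESeq2 size factors in edgeR, 0.0047 in DESeq2, 0.0033 with the replicate block, 0.013 without organelle and ribosomal RNA genes and 0.0088 in a fit of all 4 groups. AT4G40040 in EST+BAP over EST at 4 h, −0.0011 as reported, was 0.00050 with DESeq2 size factors, 0.0026 in DESeq2 and 0.00026 in a fit of all 4 groups. With 1 library left out, log2 fold changes crossed 0 for EST at 4 h AT5G59690 (−0.046 to 0.14), HTA10 (−0.075 to 0.13), AT1G06760 (−0.11 to 0.11), AT4G40030 (−0.032 to 0.099), AT2G30620 (−0.17 to 0.081) and HIS1-3 (−0.30 to 0.32), for BAP at 4 h AT1G06760 (−0.15 to 0.059), AT4G40030 (−0.10 to 0.027), AT5G10980 (−0.0071 to 0.13) and AT2G30620 (−0.091 to 0.15), for EST+BAP at 4 h HTA9 (−0.053 to 0.019), AT4G40040 (−0.018 to 0.13), AT4G40030 (−0.096 to 0.042), AT5G10980 (−0.075 to 0.065) and AT2G30620 (−0.17 to 0.083) and for EST+BAP over BAP at 4 h AT1G09200 (−0.22 to 0.039) and AT4G40030 (−0.011 to 0.062). The other crossings were for EST+BAP over EST at 4 h AT4G40040 (−0.079 to 0.069) and AT2G30620 (−0.043 to 0.054), for EST at 24 h AT5G10980 (−0.095 to 0.019), for BAP at 24 h AT4G40030 (−0.083 to 0.0021), for EST+BAP at 24 h AT4G40040 (−0.058 to 0.035) and AT4G40030 (−0.019 to 0.058), for EST+BAP over BAP at 24 h AT1G06760 (−0.090 to 0.033) and for EST+BAP over EST at 24 h AT5G10980 (−0.041 to 0.070) and AT2G30620 (−0.071 to 0.098). The reported tests were fitted without the block. Where the groups' replicate numbers paired the samples, the block changed no call of the members named for that comparison other than those given with the results. Calls of the other members under the block were seen only as counts. Elsewhere the numbers did not pair them by the criterion used: same-numbered libraries correlated at between −0.06 and 0.57 for EST at 4 h, 0.09 and 0.28 for BAP at 4 h, and 0.01 and 0.08 for EST at 24 h, and each library correlated best with its own number in all 3 replicates only for EST+BAP over BAP at 24 h. With BAP at 4 h the block would add HIS1-3, at −1.20 (adjusted p = 0.0096).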
